A study of Mus musculus with 12 samples.

Results

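The genes described are 10 genes that mark endothelial cells or build the blood-brain barrier: *Cldn5*, *Cdh5*, *Pecam1*, *Flt1*, *Tek*, *Slc2a1*, *Slco1a4*, *Abcb1a*, *Itm2a* and *Ly6c1*. They were taken by symbol from the hypothalamus RNA-Seq tables of the study, and all 10 had a row in both tables, out of 16855 genes listed for mice on a chow diet and 16744 for mice on a high-fat diet (HFD). The study compared the hypothalamus of 8-week-old male WT mice and mice homozygous for a *Gpr75* null allele (Gpr75-/-), 3 mice in each of 4 groups. These were WT and Gpr75-/- mice on the chow diet, and WT and Gpr75-/- mice that had the HFD for 2 weeks. The allele was made by CRISPR/Cas9 in C57BL/6J mice and ends translation early, in every cell of the body. Its mRNA can still be made, so the *Gpr75* level (16.7 CPM, counts in 1000000, in WT and 24.6 in Gpr75-/- mice on chow, 19.9 and 18.4 on the HFD) is no check of the genotype labels.

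Endothelial cells line the blood vessels, and in brain they form a barrier: tight junctions close the gaps between cells, and transporters decide which molecules cross. Glucose enters the brain by facilitated transport, while efflux pumps return many drugs and lipids to the blood. In the mediobasal hypothalamus the barrier is interrupted at the median eminence, whose capillaries are fenestrated and let blood-borne hormones reach nearby cells.

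The levels are the authors' group means in CPM, read back from a logarithm deposited with 2 decimals. Each mean therefore stands for a small range of values, and the ratio of the Gpr75-/- mean to the WT mean is given with the bounds that this rounding leaves. A difference is called beyond rounding where these bounds do not include equal levels. A 95% counting interval is given beside it, from the number of reads that the mean normalized counts give for 6 mice. It covers counting error only, since the reads carry no molecular identifiers and no values of single mice were used here. No SD, test or p-value is therefore given. The standard errors and p-values of the authors' own comparison were not used, so no difference below has a replicate check here. An average mouse had a depth of 18280462 normalized counts in the chow table and 19420111 in the HFD table. For the 10 genes the mean normalized count lay between 128 and 2192 with chow, and between 127 and 2577 with HFD.

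Promoter sequences are shown for the 3 genes of the list whose mean was higher in Gpr75-/- mice beyond rounding on a diet: *Slc2a1* on chow, and *Tek* and *Itm2a* on the HFD. They were picked by these values, so their promoters are a description. They are the 250 bases before the RefSeq start site, on build GRCm38.p6, read 5′ to 3′ on the gene's strand. RefSeq promoters were matched for 8 of the 10 genes, with *Cdh5* and *Pecam1* not among them. Capitals mark matches to the ETS core motif CCGGAA or CAGGAA on either strand, the motif of a factor family to which the endothelial regulators *Erg* and *Fli1* belong.
*Tek* (chr4:94739039-94739288, plus strand): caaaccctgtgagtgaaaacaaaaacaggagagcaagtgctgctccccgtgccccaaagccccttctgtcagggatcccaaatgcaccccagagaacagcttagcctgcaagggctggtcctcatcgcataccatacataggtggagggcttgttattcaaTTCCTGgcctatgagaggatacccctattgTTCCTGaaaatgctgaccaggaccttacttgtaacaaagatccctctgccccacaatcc
*Itm2a* (chrX:107403361-107403610, minus strand): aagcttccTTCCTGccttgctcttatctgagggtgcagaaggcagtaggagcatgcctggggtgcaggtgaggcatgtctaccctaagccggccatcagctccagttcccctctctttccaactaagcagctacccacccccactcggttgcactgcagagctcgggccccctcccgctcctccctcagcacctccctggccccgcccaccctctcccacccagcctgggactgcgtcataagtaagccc
*Slc2a1* (chr4:119108495-119108744, plus strand): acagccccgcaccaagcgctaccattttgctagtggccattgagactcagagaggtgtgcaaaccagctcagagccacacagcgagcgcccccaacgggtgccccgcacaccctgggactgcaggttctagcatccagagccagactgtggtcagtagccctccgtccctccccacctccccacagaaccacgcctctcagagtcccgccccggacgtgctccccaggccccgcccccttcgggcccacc
The motif was found 2 times before *Tek*, 1 time before *Itm2a* and not before *Slc2a1*. Of the 9 promoters matched for the 10 genes, 2 held it (22.2%), against 35.1% of 32851 promoters of the same length. The SOX motif ACAATG or ACAAAG, searched on both strands in the same windows, was found in 4 of the 9 (44.4%), against 25.2% of all promoters. A match in so short a motif is a description of the letters and not a binding site.

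**Figure D1:**
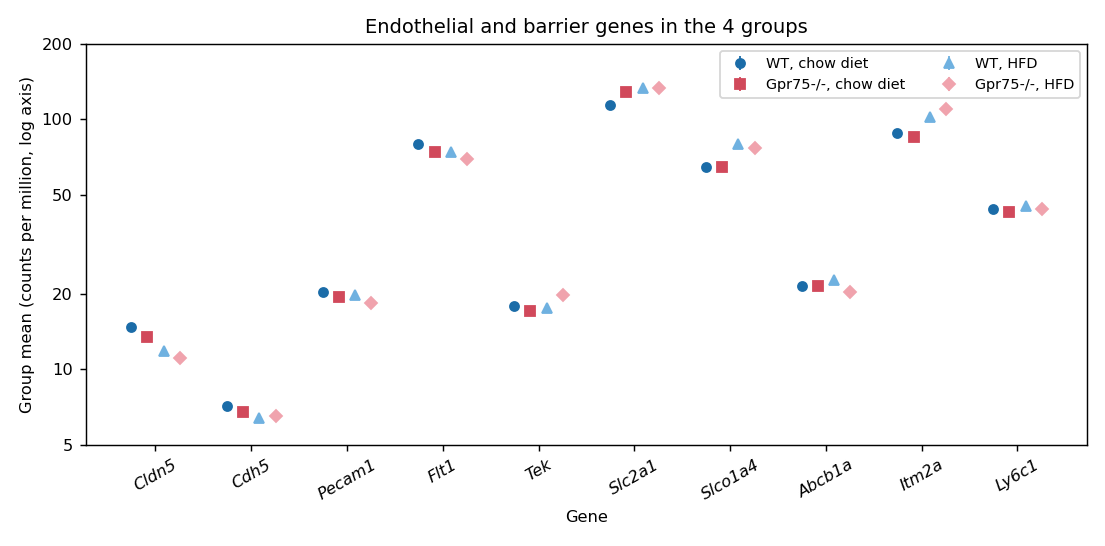
Group means in CPM (log axis) of the 10 genes in WT and Gpr75-/- mice on each diet. Rounding bounds are smaller than the symbols, there are no replicate errors, and the diets were normalized separately. The genotypes lie close together for every gene, from about 6.41 CPM (*Cdh5*) to 133 CPM (*Slc2a1*).

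Levels were first set in order per length of the gene's exons, as CPM per kilobase. In WT mice on chow *Itm2a*, a membrane protein gene that marks brain vessels, was highest at 50.6 CPM per kilobase. *Slc2a1*, the glucose transporter GLUT1, followed at 35.03, *Ly6c1*, a surface protein of capillary endothelium, at 28.3, and *Slco1a4*, an organic anion transporter, at 16.9. *Cldn5*, the main claudin of the brain's tight junctions, was at 10.5 and *Flt1*, the VEGF receptor VEGFR1, at 7.24. The lowest were *Pecam1* at 4.94, *Abcb1a* at 4.30, *Tek* at 3.83 and *Cdh5* at 1.79 CPM per kilobase. The order was the same in WT mice on the HFD, from 58.6 (*Itm2a*) to 1.60 (*Cdh5*), and in Gpr75-/- mice on chow, from 48.9 to 1.69. In Gpr75-/- mice on the HFD *Tek*, at 4.23, stood above *Abcb1a*, at 4.09 CPM per kilobase, and *Pecam1* was at 4.46. These 3 neighbours are so near each other that their order cannot be judged without the spread between mice. *Itm2a* was higher per kilobase than 92.1% of genes on chow and *Cdh5* than 19.3%.

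*Cldn5*, on chromosome 16 (18595597 to 18597012, build GRCm39 per the submitters' processing notes, as for all gene positions that follow), had the lowest ratio of the 10 genes on chow. Its mean was 14.8 CPM in WT and 13.5 CPM in Gpr75-/- mice, a ratio of 0.911 (log2 -0.13, rounding bounds -0.17 to -0.10). The counting interval, -0.28 to 0.01 on the log2 scale, included equal levels. On the HFD its means were 11.8 and 11.1 CPM, a log2 ratio of -0.09 (bounds -0.13 to -0.06, counting interval -0.25 to 0.06). *Cldn5* was thus lower in Gpr75-/- mice beyond rounding on each diet, and on each by less than counting alone can resolve.

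*Cdh5*, which encodes the adhesion protein VE-cadherin of endothelial junctions, lies on chromosome 8 (104828257 to 104871143). It had the fewest reads and so the widest intervals of the list. Its means were 7.15 CPM in WT and 6.77 CPM in Gpr75-/- mice on chow, a log2 ratio of -0.08 (bounds -0.11 to -0.05, counting interval -0.29 to 0.13). On the HFD they were 6.41 and 6.53 CPM, a log2 ratio of 0.03 that rounding alone can give (counting interval -0.19 to 0.23).

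*Pecam1*, the adhesion molecule CD31 (chromosome 11, 106545043 to 106641454), was at 20.4 CPM in WT and 19.4 CPM in Gpr75-/- mice on chow, a log2 ratio of -0.07 (bounds -0.11 to -0.04). On the HFD it was at 19.9 and 18.4 CPM, a log2 ratio of -0.11 (bounds -0.15 to -0.07). The counting intervals, -0.20 to 0.05 and -0.23 to 0.01, included equal levels on both diets. Among the junction genes *Cldn5* and *Pecam1* were therefore on the lower side on both diets and *Cdh5* on chow alone.

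**Figure D2:**
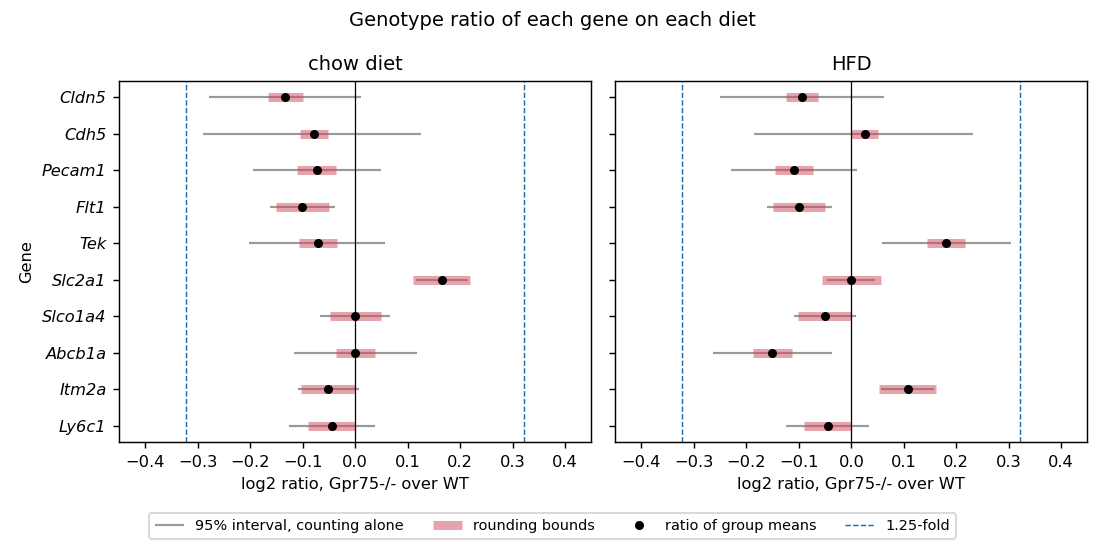
Log2 ratio of the Gpr75-/- mean to the WT mean for each gene on the chow diet (left) and the HFD (right). Points are the ratios, thick bars the rounding bounds, thin lines the 95% counting intervals and dashed lines a 25% difference, which no gene reaches. *Slc2a1* on chow and *Tek* and *Itm2a* on the HFD lie to the right of 0.

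The receptors differed from each other on the HFD. *Flt1* (chromosome 5, 147498414 to 147662821) binds VEGF and, in its soluble form, holds it away from the signaling receptor. It was at 79.4 CPM in WT and 74.0 CPM in Gpr75-/- mice on chow, a log2 ratio of -0.10 (bounds -0.15 to -0.05). On the HFD it was at 74.0 and 69.1 CPM, again a log2 ratio of -0.10 (bounds -0.15 to -0.05). *Flt1* had 8468 reads in the 6 mice on chow, and its counting intervals, -0.16 to -0.04 on both diets, did not include equal levels. It was the only one of the 10 genes of which that held on both diets, in the same direction.

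*Tek* encodes TIE2, the receptor for angiopoietins, which keeps vessels quiescent when angiopoietin 1 is bound (chromosome 4, 94627526 to 94763213). On chow it was at 17.99 CPM in WT and 17.1 CPM in Gpr75-/- mice, a log2 ratio of -0.07 (bounds -0.11 to -0.04, counting interval -0.20 to 0.06). On the HFD it was at 17.6 and 19.9 CPM, a ratio of 1.13 (log2 0.18, bounds 0.14 to 0.22, counting interval 0.06 to 0.30). That ratio was the highest of the 10 genes on the HFD, at the 90.7th percentile of all genes. Its promoter is the one printed above with 2 ETS matches.

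Among the transporters *Slc2a1* (chromosome 4, 118965908 to 118995180), which astrocytes also express, had the highest ratio on chow. Its means were 114 CPM in WT and 128 CPM in Gpr75-/- mice, a ratio of 1.12 (log2 0.16, bounds 0.11 to 0.22, counting interval 0.12 to 0.21), at the 88.5th percentile of all genes. It was the only gene of the list that was higher in Gpr75-/- mice beyond rounding on chow. On the HFD both genotypes had the same deposited mean, 133 CPM, which leaves a log2 ratio between -0.06 and 0.06. The astrocyte list, of 10 genes, had a median log2 ratio of 0.03 on both diets, with 2 higher and 1 lower beyond rounding on chow (30.7% and 29.9% of all genes) and 3 higher and 0 lower on the HFD (32.6% and 24.2%), and its part in the *Slc2a1* value was not tested.

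*Abcb1a*, the efflux pump P-glycoprotein (chromosome 5, 8710077 to 8798575), showed the reverse order of diets. Its deposited means were equal on chow, at 21.5 CPM, with rounding bounds of -0.04 to 0.04. On the HFD it was at 22.7 CPM in WT and 20.4 CPM in Gpr75-/- mice, a ratio of 0.901 (log2 -0.15, bounds -0.19 to -0.11, counting interval -0.26 to -0.04). That was the lowest ratio of the list on the HFD, at the 10.01 percentile of all genes. Reads can be shared with its close copy *Abcb1b*, which was at 3.50 and 3.28 CPM on chow and 3.20 and 2.96 CPM on the HFD. *Slco1a4* (chromosome 6, 141751166 to 141801925) had equal means of 64.6 CPM on chow, and 79.4 CPM in WT and 76.6 CPM in Gpr75-/- mice on the HFD, a difference that rounding alone can give.

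*Itm2a* (chromosome X, 106440705 to 106446982) was at 88.3 CPM in WT and 85.2 CPM in Gpr75-/- mice on chow, a difference within rounding. On the HFD it was at 102 and 110 CPM, a ratio of 1.08 (log2 0.11, bounds 0.05 to 0.16, counting interval 0.06 to 0.16). *Itm2a* and *Tek* were the genes of the list that were higher beyond rounding on the HFD. *Ly6c1* (chromosome 15, 74915867 to 74920679) differed by no more than rounding on either diet, with means of 43.8 and 42.5 CPM on chow and 45.2 and 43.8 CPM on the HFD. Its close copy *Ly6c2* was listed on the HFD only, at 1.32 and 1.28 CPM, and sharing of reads between them was not tested. No other gene of either table overlapped the position of any of the 10 genes.

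Over the list, 0 of 10 genes differed by more than 25%, the higher mean over the lower, on either diet. Of all genes with a mean of at least 25 normalized counts, 6.94% did so on chow and 4.97% on the HFD. Within the range of mean counts of the 10 genes the shares were 2.00% and 1.32%. On chow 5 of the 10 genes were lower beyond rounding and 1 was higher, against 29.9% lower and 30.7% higher over all genes. On the HFD 4 were lower and 2 higher, against 24.2% and 32.6%. The median log2 ratio of the 10 genes was -0.06 on chow and -0.05 on the HFD, against 0.00 over all genes on each. The summed levels of the 10 genes were nearly equal between the genotypes, at 472 and 473 CPM on chow and 512 and 509 CPM on the HFD. The chow sum includes *Slc2a1*, the only gene higher beyond rounding there, at 114 CPM in WT and 128 CPM in Gpr75-/- mice. It therefore does not describe the other genes of the list. In bulk tissue a smaller share of endothelial cells and less RNA per cell cannot be told apart.

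**Figure D3:**
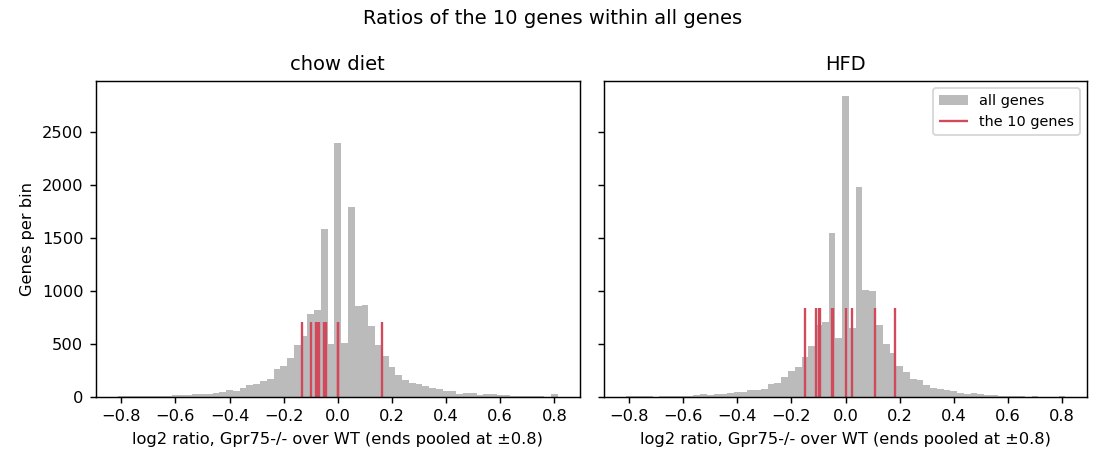
Histogram of log2 ratios of all genes with a mean of at least 25 normalized counts (grey, genes per bin) and the ratios of the 10 genes (red lines) on each diet, with values beyond 0.8 pooled at the ends. The spikes near 0 come from the 2 decimals of the deposited means. The 10 genes lie inside the central mass, from -0.13 to 0.16 on chow and from -0.15 to 0.18 on the HFD.

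Each diet has its own WT mice and its own normalization, so the ratios are given side by side. *Cldn5*, *Pecam1* and *Flt1* were lower in Gpr75-/- mice beyond rounding on both diets. *Tek* was lower on chow and higher on the HFD, a difference between the diets of 0.25 on the log2 scale (rounding bounds 0.18 to 0.32, counting interval 0.07 to 0.43). The ratio of *Itm2a* was 0.16 higher on the HFD than on chow (bounds 0.05 to 0.26, counting interval 0.08 to 0.24). The log2 ratio of *Slc2a1* was lower on the HFD, by -0.16 (bounds -0.28 to -0.05, counting interval -0.23 to -0.10). These 3 were the genes whose difference between the diets lay outside both rounding and counting, and it was not tested against the spread between mice. For *Abcb1a* the difference was -0.15 and its counting interval, -0.31 to 0.01, included 0. *Flt1* and *Ly6c1* had the same log2 ratio on both diets to 2 decimals. Rounding leaves a difference between the diets of -0.10 to 0.10 for *Flt1* and -0.09 to 0.09 for *Ly6c1*.

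The mean over the 6 mice of a diet is deposited beside the 2 group means, and the group means behave as averages of logarithms. The excess of the mean over 6 mice above the group means grows with the spread between mice, though it is no SD. It was 0.01 on the log2 scale for the median gene on each diet. For the 10 genes it lay between -0.01 and 0.03 on chow and between -0.00 and 0.02 on the HFD, in each case under the 95th percentile of all genes, 0.04. Rounding of the group means enters this excess, and its part was not bounded. A low excess therefore does not show a small spread between mice. For *Ttr*, a choroid plexus gene, the excess was 4.10 on chow.

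Markers of some other cell types differed between the genotypes, and their part in the values above was not tested. Over all genes 30.7% were higher and 29.9% lower beyond rounding on chow, and 32.6% and 24.2% on the HFD, while 6.94% and 4.97% differed by more than 25% in either direction. On chow, 9 of 9 choroid plexus genes with a mean of at least 25 and 5 of 5 red blood cell genes were higher in Gpr75-/- mice by more than 25%. Of the choroid plexus genes, 3 were listed in WT mice at the lowest value the scale holds, so no fold is given for them, and the other 6 had log2 ratios from 0.39 to 1.3. The red blood cell genes had a median log2 ratio of 0.63. Summed levels were 45.2 CPM in WT and 78.9 CPM in Gpr75-/- mice over all 10 listed choroid plexus genes, with those at the lowest value taken as 1 CPM, and 277 and 443 CPM for red blood cells. These are sums of averages of logarithms, and for choroid plexus they lie under the plain mean of *Ttr* alone, 159 CPM over the 6 mice on chow. All 9 choroid plexus genes had an excess of the mean over 6 mice above the 95th percentile of all genes on chow, against 0 of 5 red blood cell genes and 0 of the 10 endothelial genes. For the latter lists a low excess does not show a small spread, since rounding enters it. The summed level of the 10 endothelial genes was 472 CPM in WT and 473 CPM in Gpr75-/- mice on the same diet. In that sum *Slc2a1* was at 114 and 128 CPM, while 5 of the 10 genes were lower beyond rounding. The HFD did not show these higher red blood cell and choroid plexus levels: the red blood cell sum was 314 CPM in WT and 280 CPM in Gpr75-/- mice, and of 5 choroid plexus genes listed there 2 were higher and 2 lower beyond rounding, with sums of 37.98 and 37.03 CPM. *Ttr* was at 3.6 CPM in WT and 1.35 CPM in Gpr75-/- mice on the HFD (log2 -1.41), the lowest ratio of all genes there. Of 10 oligodendrocyte genes, 7 were lower in Gpr75-/- mice beyond rounding on chow and 10 on the HFD, and 0 were higher (median log2 ratio -0.17 and -0.27). Of 10 neuron genes, 7 on chow and 9 on the HFD were within rounding, with a median of 0.00 on both diets. Of 10 microglia genes, 1 was higher and 4 lower on chow, and 1 higher and 5 lower on the HFD (median -0.02 and -0.06). In the neuron and microglia lists 0 genes differed by more than 25%. The 12 hypothalamus markers were all listed, at 2.69 to 245 CPM in WT mice on chow, and had a median log2 ratio of 0.05 on chow and 0.30 on the HFD. On chow 5 of them were higher and 4 lower beyond rounding, with 1 higher by more than 25%. On the other diet 10 were higher and 0 lower, with 6 higher by more than 25%.

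**Figure D4:**
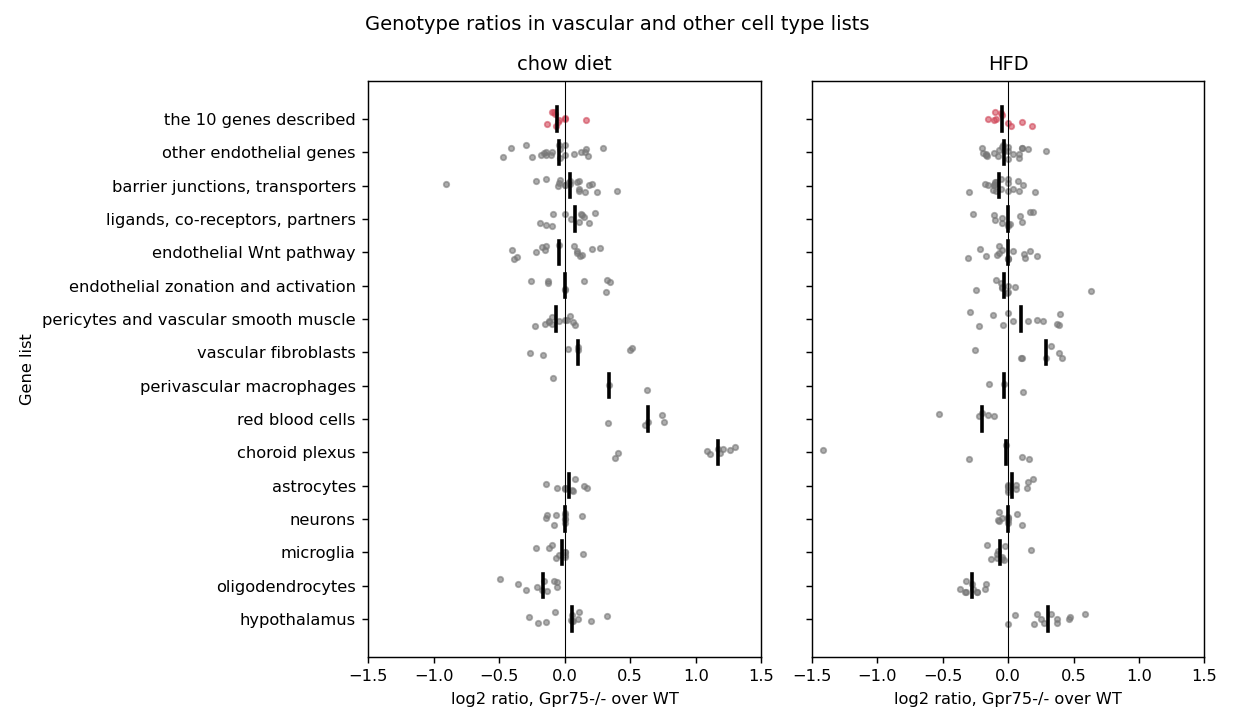
Log2 ratio of the Gpr75-/- mean to the WT mean for every gene with a mean of at least 25 normalized counts in 16 lists (rows), on each diet. Dots are genes, the 10 genes described are red, and black bars are medians. The 10 genes and the other endothelial genes have medians from -0.06 to -0.03, red blood cell and choroid plexus genes lie to the right on chow, and the hypothalamus (median 0.30) and fibroblast (0.29) lists lie to the right on the HFD.

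Of 21 other endothelial genes, 10 were lower and 6 higher beyond rounding on chow, and 9 lower and 6 higher on the HFD, with median log2 ratios of -0.04 and -0.03. Over all genes 29.9% were lower and 30.7% higher on chow, and 24.2% and 32.6% on the HFD. On chow 2 of the 21, *Cyyr1* and *Sox18*, were on the lower side past a 25% difference, the higher mean over the lower. On the HFD 0 of 21 passed, where 6.94% of all genes on chow and 4.97% on the HFD did in either direction. *Sox18*, a transcription factor of endothelium, named after its value was seen, was at 4.68 CPM in WT and 3.37 CPM in Gpr75-/- mice on chow (log2 -0.48, counting interval -0.75 to -0.20), the lowest of the list. On the HFD it was at 3.50 and 4.27 CPM, the highest of the list (log2 0.29, counting interval 0.01 to 0.56). *Tie1*, an orphan receptor that pairs with TIE2, was at 10.6 CPM in WT and 8.65 CPM in Gpr75-/- mice on chow, a log2 ratio of -0.30, and had equal means of 8.65 CPM on the HFD. *Cyyr1* was at 7.70 and 5.78 CPM on chow (log2 -0.41). *Adgrl4*, an adhesion receptor of endothelium, was at 29.8 and 36.5 CPM on chow (log2 0.29). On the HFD it went the other way, at 37.6 and 33.4 CPM (log2 -0.17, counting interval -0.26 to -0.08). *Ramp2*, which forms the adrenomedullin receptor, was at 12.9 and 14.5 CPM. *Fli1*, an ETS factor, was lower on both diets, with log2 ratios of -0.25 and -0.20, while its relative *Erg* had a mean under 25 normalized counts on each diet. Among genes with a mean of at least 100, the lowest with *Fli1* on the HFD was *Nos3*, the endothelial nitric oxide synthase (log2 -0.19), and the highest were *Vwf*, the von Willebrand factor (0.15), and *Sox17* (0.11). *Kdr*, the main signaling receptor for VEGF, was at 18.4 and 17.99 CPM on chow, within rounding, and at 17.6 and 16.3 CPM on the HFD (log2 -0.11).

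Barrier junction and transporter genes were counted in the same way. On chow 9 of 20 were higher and 3 lower in Gpr75-/- mice beyond rounding (median log2 ratio 0.04), against 30.7% and 29.9% of all genes. On the HFD 4 were higher and 10 lower (median -0.07), against 32.6% and 24.2%. The 2 genes past a 25% difference, both on chow, went opposite ways, where 6.94% of all genes on chow and 4.97% on the HFD passed in either direction. *Slc38a5*, a glutamine transporter gene, named after its value was seen, was at 3.86 CPM in WT and 2.06 CPM in Gpr75-/- mice (log2 -0.91, counting interval -1.24 to -0.57), and on the HFD at 2.57 and 2.38 CPM, there with an excess of the mean over 6 mice of 0.05, above the 95th percentile of all genes. *Abcc4*, an efflux pump, was the other, at 12.1 CPM in WT and 15.9 CPM in Gpr75-/- mice on chow (log2 0.40) and at 14.2 and 13.2 CPM on the HFD (log2 -0.10). *Mfsd2a*, the lipid transporter that restrains vesicle traffic across the barrier, was at 25.9 and 30.7 CPM on chow (log2 0.24) and had equal means of 31.5 CPM on the HFD. *Ocln*, a tight junction gene beside *Cldn5*, had a log2 ratio of 0.18 on chow, against -0.15 on the HFD. The taurine transporter gene *Slc6a6* was lower on both diets (-0.22 and -0.11). Among genes with a mean of at least 100, the highest on the HFD was *Slc22a8*, an organic anion transporter (0.21, with an excess of the mean over 6 mice of 0.08, above the 95th percentile of all genes), and *Slc16a1*, the monocarboxylate transporter MCT1, had a ratio within rounding on chow (-0.05) and was lower beyond rounding on the HFD (-0.10, counting interval -0.16 to -0.05).

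The ligands of the receptors showed small differences. *Vegfa*, which binds both *Flt1* and *Kdr* products, was at 106 CPM in WT and 114 CPM in Gpr75-/- mice on chow (log2 0.11) and at 102 and 94.9 CPM on the HFD (log2 -0.11). *Angpt1*, the activating ligand of TIE2, had log2 ratios of 0.13 on chow and 0.11 on the HFD. *Pgf*, a ligand of VEGFR1, was at 5.23 and 5.88 CPM on the HFD (log2 0.17). Of the junction partners, *Ctnnb1* (beta-catenin) had a log2 ratio of 0.12 on chow, *Ctnnd1* (p120 catenin) of -0.19 and *Jup* (plakoglobin) of -0.14. *Nrp2* and *Tns1* stood at -0.10 and 0.19 on the HFD. Over the 12 genes, 6 were higher and 4 lower beyond rounding on chow (30.7% and 29.9% of all genes), and 4 higher and 3 lower on the HFD (32.6% and 24.2%).

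In the Wnt and beta-catenin pathway, which maintains the barrier, 7 of 15 genes were higher and 7 lower beyond rounding on chow (30.7% and 29.9% of all genes), and 4 higher and 6 lower on the HFD (32.6% and 24.2%). *Wnt7a* was at 9.18 CPM in WT and 7.02 CPM in Gpr75-/- mice on chow (log2 -0.39) and at 7.56 and 8.48 CPM on the HFD (log2 0.17). *Fzd4*, a Wnt receptor, had a log2 ratio of 0.27 on chow and *Lrp6*, its co-receptor, of -0.22. *Axin2*, a target of the pathway, stood at 0.13 on each diet. *Reck* and *Lef1* were the lowest on the HFD among genes with a mean of at least 100, at -0.21 and -0.17. *Foxq1*, a transcription factor gene with fewer reads, named after its value was seen, was lower on both diets (log2 -0.40 on chow and -0.31 on the HFD, where the counting interval, -0.73 to 0.10, included 0). With *Wnt7a* and *Lrp5* (-0.37) it made up the 3 genes of the list on the lower side past a 25% difference on chow, the higher mean over the lower. That size was passed by 6.94% of all genes in either direction. *Lrp5* went the other way on the HFD, at 2.30 CPM in WT and 2.69 CPM in Gpr75-/- mice (log2 0.22, counting interval -0.11 to 0.56). *Plvap*, which builds the diaphragms of fenestrated capillaries, was at 9.18 and 10.2 CPM on chow (log2 0.15) and had equal means on the HFD. *Ackr1*, a chemokine receptor of venules, had log2 ratios of -0.26 on chow and -0.05 on the HFD, and the arterial gene *Efnb2* had ratios of -0.13 and -0.04. The venous factor gene *Nr2f2* stood at 0.00 and 0.05, and *Vcam1*, an adhesion molecule of activated endothelium, at -0.13 (counting interval -0.22 to -0.04) and -0.04. In WT mice on chow *Nr2f2* was at 82.2 CPM and *Vcam1* at 36.5 CPM, against 7.15 CPM for *Cdh5*. In bulk tissue the cells that these reads came from were not tested. Over the zonation and activation list of 9 and 10 genes with a mean of at least 25, medians were 0.00 on chow and -0.03 on the HFD, with 4 higher and 3 lower beyond rounding on chow, and 1 higher and 3 lower on the HFD. Genes of this list that differed by more than 25%, named after their values were seen, had few reads. *Bmx*, an arterial kinase gene, was higher in Gpr75-/- mice on chow (log2 0.33, counting interval -0.14 to 0.80, excess of the mean over 6 mice 0.04, above the 95th percentile of all genes) and on the HFD (1.34 and 2.08 CPM, log2 0.63, counting interval 0.20 to 1.05). *Icam1*, an adhesion molecule, had log2 ratios of 0.34 on chow and -0.24 on the HFD, with counting intervals that included 0.

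Around the endothelium, 12 genes of pericytes and smooth muscle had a median log2 ratio of -0.07 on chow and 0.10 on the HFD. Of these, 2 were higher and 6 lower beyond rounding on chow (30.7% and 29.9% of all genes), and 6 higher and 3 lower on the HFD (32.6% and 24.2%). *Acta2* and *Myh11*, the contractile genes of smooth muscle, were higher in Gpr75-/- mice by more than 25% on the HFD, *Acta2* at 11.8 CPM in WT and 15.5 CPM in Gpr75-/- mice and *Myh11* at 12.9 and 16.7 CPM. On chow *Acta2* was on the lower side (log2 -0.12) and *Myh11* stood at 0.06. The third gene past that size on the HFD was *Anpep* of pericytes, at 1.53 and 2.00 CPM, named after its value was seen. Its counting interval there, -0.02 to 0.79, included 0, and its log2 ratio on chow was -0.12. *Pdgfrb*, the receptor that recruits pericytes, was at 23.3 and 24.6 CPM on chow, *Cspg4* (NG2) was at 29.8 and 28.97 CPM on the HFD, and *Abcc9*, a potassium channel subunit of pericytes, had log2 ratios of -0.10 on chow and -0.22 on the HFD. Fibroblast genes of vessels and meninges had medians of 0.10 and 0.29, with 4 higher and 2 lower beyond rounding on chow and 6 higher and 1 lower on the HFD, and with 2 of 7 higher by more than 25% on chow (*Lum* 0.50 and *Ogn* 0.51) and 3 of 7 on the HFD (*Col1a2* 0.33, *Ogn* 0.39 and *Slc6a13* 0.41), a size that 6.94% and 4.97% of all genes passed in either direction. *Lum* and *Slc6a13* were named after their values were seen, and *Slc6a13* was lower beyond rounding on chow. *Col1a1* stood at 0.02 on chow and 0.10 on the HFD, and *Dcn* and *Col1a2* stood at 0.10 on chow. *Col3a1*, a fibrillar collagen gene, was on the lower side on both diets, at log2 -0.26 on chow (counting interval -0.60 to 0.05) and -0.25 on the HFD (-0.48 to -0.03). The excess of the mean over 6 mice was above the 95th percentile of all genes for 4 of 7 fibroblast genes on chow and 7 of 7 on the HFD, such as 0.05 for *Col1a2* and 0.56 for *Ogn*. The smooth muscle gene *Acta2* (0.05) and *Anpep* (0.04) were above that percentile on the HFD as well. Perivascular macrophage genes, 3 in number, had medians of 0.34 on chow, with 2 higher by more than 25%, and -0.03 on the HFD, with 0 past that size. They had few reads, at 1.38 to 1.51 CPM in WT mice on chow. The excess of the mean over 6 mice was above the 95th percentile of all genes for 1 of them on chow and 3 on the HFD.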

How the data were processed

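Hypothalamus RNA was extracted, libraries were prepared with the SMART-Seq mRNA LP kit, and reads were processed by the authors on the Astrocyte platform. The submitters' processing notes name STAR, featureCounts, StringTie, DESeq2 and build GRCm39. The deposited tables, 1 for each diet, hold 2 kinds of values used here. The signal per gene is the authors' mean over 6 mice of counts divided by size factors. The deposited mean of each group is a log2 value with 2 decimals. It was read as the log2 of 1 plus the log2 of CPM, since this gave back the mean over 6 mice, as a share of its sum, within 0.1 log2 for 99.1% of 16778 genes above 1 CPM on chow and 99.2% of 16682 on the HFD. The columns of the authors' own comparison (fold changes, standard errors and p-values) were not used. Tests on counts of single mice had been planned and could not be made with group means.

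Ratios, rounding bounds and Clopper-Pearson counting intervals used scipy 1.17.1, pandas 2.3.3 and numpy 2.4.6 under Python 3.11.15. Plots were drawn by matplotlib 3.10.9. Simulated data with known ratios served to test the steps. Counting intervals take size factors near 1. Counts over all genes used genes with a mean of at least 25 normalized counts. Exon lengths came from GENCODE M21, whose build differs, matched by Ensembl identifier for 99.8% of genes, with no coordinates taken from it. The members, 15 other lists and the threshold of a 25% difference were chosen with earlier results of these data known. Named genes were the members and, from each vascular list, genes among the 2 highest and 2 lowest ratios per diet with a mean of at least 100, plus *Vegfa*, *Kdr*, *Angpt1*, *Tie1* and *Plvap*. The same rule was written for lists of other cell types, which are given by counts and medians. A gene that this rule names is not reported here.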

Additional observations from a re-analysis of the deposited data

How the results depend on the processing

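No paired analysis was possible because the tables hold group means and no values of single mice, and leaving out single mice and the planned tests on counts could not be run for the same reason. The median log2 ratio of all genes was 0.00 on each diet, so centring on it could not change the ratios. A pseudocount of 10 normalized counts moved the log2 ratios of the 10 genes by at most 0.01 and turned no direction. Adding the other endothelial genes to the list gave median log2 ratios of -0.05 on chow and -0.04 on the HFD. With a fold threshold of 1.1, 1 of the 10 genes passed on chow (*Slc2a1*) and 2 on the HFD (*Tek* and *Abcb1a*), against 4828 (29.8%) and 4163 (25.5%) of all genes. With a threshold of 1.5, 0 of the 10 passed, against 173 (1.07%) and 85 (0.521%) of all genes. The 1124 genes past a 25% difference on chow and 811 on the HFD became 280 and 179 with a mean of at least 100, 578 and 494 among protein-coding genes, and 199 and 136 within the range of mean counts of the 10 genes. That last setting was added after seeing the data. The share fell too, from 6.94% and 4.97% to 2.26% and 1.43% with a mean of at least 100, 4.24% and 3.62% among protein-coding genes, and 2.00% and 1.32% in that range. The cause was not tested. Depth limits *Cdh5* most, with 770 and 762 reads in 6 mice.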
